A study of Mus musculus with 2 samples.

Results

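The mir-181 family of the mouse consists of 6 miRNA genes in 3 genomic pairs, Mir181a-1 with Mir181b-1, Mir181a-2 with Mir181b-2, and Mir181c with Mir181d. These 6 were taken by symbol from 2202 annotated miRNA genes. Short RNAs were sequenced from total RNA of whole heart in 2 libraries of 1 group, male mice of the hybrid strain B6CASTF1/J, whose name marks a first-generation cross of B6 with CAST. Their age is 36 days by the age field, while another field writes the same number as months. The animals are numbered differently but share a donor record, so the spread between libraries may be technical. No treatment, engineered allele, other tissue or other age was labelled, so the family is described here in this heart group and between its replicate libraries.

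A miRNA gene is transcribed as a long primary RNA, from which a hairpin and then a short duplex with a 5p and a 3p arm are cut. The arm kept in the silencing complex pairs with messenger RNAs mainly through its seed, bases 2 to 8. In mouse thymocytes miR-181a is known to raise the sensitivity of the T cell receptor by lowering phosphatases, and in endothelium miR-181b is known to restrain NF-kB signalling through importin-alpha3. In rat heart, miR-181c has been found inside mitochondria, where it acts on a mitochondrially encoded subunit of cytochrome c oxidase.

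The mature sequences are shown because they decide which loci can be told apart by a read. All are from RefSeq on build GRCm38.p6, written 5′ to 3′ with the seed in capitals. The 6 genes matched 12 mature entries there, and the 5p arms come to 4 distinct sequences:
miR-181a-5p: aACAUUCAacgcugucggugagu
miR-181b-5p: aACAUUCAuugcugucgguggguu
miR-181c-5p: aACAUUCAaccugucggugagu
miR-181d-5p: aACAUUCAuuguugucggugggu

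The 4 sequences share 1 seed, and among 1738 mature entries in the table no gene outside the family carries it. miR-181a-5p is made at Mir181a-1 and at Mir181a-2, and miR-181b-5p at Mir181b-1 and at Mir181b-2. miR-181c-5p and miR-181d-5p are each made at a single annotated locus, and the longest stretch either shares with the sequence of another gene is 12 bases for miR-181c-5p and 11 bases for miR-181d-5p. By sequence the family falls into an a-like set and a b-like set. miR-181c-5p lies at an edit distance of 1 from miR-181a-5p. miR-181d-5p lies at an edit distance of 2 from miR-181b-5p, being 1 base shorter and carrying the substitution C12U, with positions counted from 1 at the 5′ end of miR-181b-5p. Between the sets, miR-181a-5p and miR-181b-5p lie at a distance of 4.

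The opposite arms differ at every locus, and they are shown because reads from them can be told apart between the copies:
miR-181a-1-3p: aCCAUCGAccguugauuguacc
miR-181a-2-3p: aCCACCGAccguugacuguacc
miR-181b-1-3p: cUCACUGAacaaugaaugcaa
miR-181b-2-3p: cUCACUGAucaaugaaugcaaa
miR-181c-3p: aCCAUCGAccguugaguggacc
miR-181d-3p: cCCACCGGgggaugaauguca

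miR-181a-1-3p and miR-181c-3p share a 3p seed, and so do miR-181b-1-3p and miR-181b-2-3p. The edit distance is 2 between miR-181a-1-3p and miR-181a-2-3p, and 2 between miR-181b-1-3p and miR-181b-2-3p.

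Hairpins that carry the same 5p arm differ in how far the identity reaches beyond it. In the following 4 hairpins the capitals mark the stretch around the 5p arm that both copies hold:
Mir181a-1: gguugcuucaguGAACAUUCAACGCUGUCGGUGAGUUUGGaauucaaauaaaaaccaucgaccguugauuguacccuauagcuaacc
Mir181a-2: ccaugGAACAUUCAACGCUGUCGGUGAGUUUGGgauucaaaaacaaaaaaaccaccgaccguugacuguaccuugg
Mir181b-1: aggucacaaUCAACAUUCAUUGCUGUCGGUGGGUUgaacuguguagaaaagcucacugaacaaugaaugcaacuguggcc
Mir181b-2: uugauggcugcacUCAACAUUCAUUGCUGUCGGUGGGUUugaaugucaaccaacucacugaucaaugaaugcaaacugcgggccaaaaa

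For the Mir181a copies the shared stretch is 28 bases and goes on for 4 bases past the 3′ end of the annotated 5p arm. For the Mir181b copies it is 26 bases and goes on for 0 bases past that end. The deposited tables count each hairpin as a whole, with the arms together. They list reads that mapped to several places apart from all genes, at 41.5% of reads in library 1 and 42.9% in library 2. The counts of the 4 Mir181a and Mir181b loci therefore leave out reads that could not be placed at 1 copy, and how many of these carry a mir-181 sequence was not analysed here.

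The 3 pairs lie on 3 chromosomes (mm10 positions, from the M21 annotation). Mir181a-1 (ENSMUSG00000065565.1, chromosome 1, plus strand, 137966455 to 137966541) and Mir181b-1 (ENSMUSG00000065458.1, 137966639 to 137966718) are 97 bases apart, in an intron of the noncoding gene Gm4258 on the same strand. Mir181b-1 also lies wholly in an exon of the lincRNA A430106G13Rik, which covers the last 11 bases of Mir181a-1. Mir181a-2 (ENSMUSG00000065423.1, chromosome 2, plus strand, 38852735 to 38852810) and Mir181b-2 (ENSMUSG00000065578.1, 38853830 to 38853918) are 1019 bases apart and lie antisense to an intron of Nr6a1, which encodes an orphan nuclear receptor of the germ line. Mir181b-2 also lies opposite an exon of Gm44144, a transcript model the annotation marks as still to be tested by experiment. Mir181d (ENSMUSG00000076338.1, chromosome 8, minus strand, 84178716 to 84178787) and Mir181c (ENSMUSG00000065483.2, 84178873 to 84178961) are 85 bases apart in an intron of Nanos3, which encodes an RNA-binding protein of germ cells. The host transcripts were not measured.

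**Figure D1:**
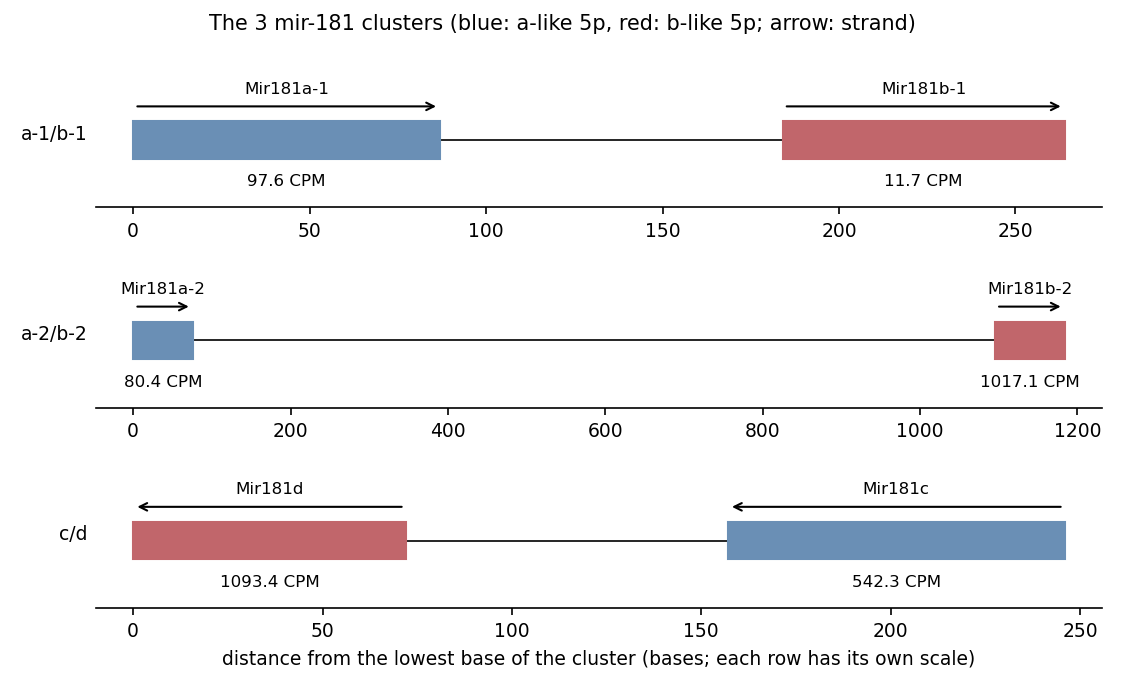
Map of the 3 clusters, with distance in bases from the lowest base of each cluster on the x axis (each row has its own scale), hairpins as boxes, strand as arrows and the mean level of the 2 libraries under each box. The b-like gene has the higher mean in the a-2/b-2 cluster (1017 against 80.4 CPM) and in the c/d cluster (1093 against 542 CPM), and the lower in the a-1/b-1 cluster (11.7 against 97.6 CPM).

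The sense-strand reads placed on miRNA genes numbered 1999362 in library 1 and 1862526 in library 2. Levels are counts per 1000000 of these reads (CPM), given as mean ± SD over n = 2 libraries. A counted read is a short RNA, so levels of genes were set side by side without division by length, and division by hairpin length left the order of the 6 means as it is given here. Markers of heart muscle were present, with Mir208a at 7004 CPM in library 1 and 3393 CPM in library 2 and Mir499 at 1336 and 3141 CPM. Of 7 heart muscle markers 4 reached 10 CPM in both libraries. Mir1a-1, Mir133a-1 and Mir133a-2 did not, at means of 2.32, 2.06 and 2.04 CPM. Reads that mapped to several places are left out of these counts, so a low count does not show that a mature miRNA is scarce. The 6 matched neuronal markers summed to 5.00e-05% of assigned reads in library 1 and 5.37e-05% in library 2. The liver marker Mir122 had 119 CPM in library 1 and 13.4 CPM in library 2. Of the 2 skeletal muscle markers, Mir206 had 97.0 CPM in library 1 and 4.83 CPM in library 2, and Mir133b had 1.5 and 0.537 CPM. Leukocyte markers summed to 0.689% of assigned reads in library 1 and 0.678% in library 2, erythroid markers to 0.245% and 0.197%, and endothelial markers to 4.89% and 6.38%. Mir122 and Mir206 were thus higher in library 1, as were the leading mir-181 genes, and their part in the differences between the libraries was not tested.

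The family as a whole was a small part of the counted heart miRNAs. It held 6773 reads in library 1 and 4279 in library 2, a level of 3388 CPM and 2297 CPM, and a mean of 2843 ± 771 CPM. The share of assigned reads was 0.339% in library 1, with an exact Clopper-Pearson 95% interval of 0.331 to 0.347. In library 2 it was 0.230%, with an interval of 0.223 to 0.237. The intervals do not overlap, and they cover counting error only, because PCR reads without molecular identifiers are not independent molecules. Reads that mapped to several places are in neither the family's counts nor the total. The share of the family in all heart miRNA reads is therefore not given by these values. In whole tissue, fewer cells that make a miRNA and less of it per cell cannot be told apart. Of the 6 genes 5 reached 10 CPM in both libraries, against 11.0% of all annotated miRNA genes, and 3 reached 100 CPM in both, against 5.9%.

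The b-like genes Mir181d and Mir181b-2 led the family in counted reads. Reads of miR-181a-5p and miR-181b-5p that could not be placed at 1 copy are left out, so this order need not hold for the mature miRNAs. Mir181d had 1374 CPM in library 1 and 812 CPM in library 2, from 2748 and 1513 reads, a mean of 1093 ± 397 CPM and rank 66 among all annotated miRNA genes. Mir181b-2 had 1287 CPM and 747 CPM, from 2574 and 1391 reads, a mean of 1017 ± 382 CPM and rank 69. Their ranges overlapped, so the means do not differ beyond the spread of the libraries. Within a library, however, the ratio of Mir181d to Mir181b-2 reads was 1.07 in library 1 (1.01 to 1.13 as the exact 95% interval) and 1.09 in library 2 (1.01 to 1.17), just above 1 in each.

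Mir181c came next and was nearly level between the libraries. It had 547 CPM in library 1 and 538 CPM in library 2, from 1093 and 1002 reads, a mean of 542 ± 6.15 CPM and rank 86. Its range lay below that of Mir181b-2 and above that of Mir181a-1.

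The Mir181a loci stood far lower in counted reads. Mir181a-1 had 99.0 CPM in library 1 and 96.1 CPM in library 2, from 198 and 179 reads, a mean of 97.6 ± 2.07 CPM. Mir181a-2 had 63.5 CPM and 97.2 CPM, from 127 and 181 reads, a mean of 80.4 ± 23.8 CPM. Their ranges overlapped and their order turned, with Mir181a-1 higher in library 1 and Mir181a-2 higher in library 2. Since both make miR-181a-5p, these counts can miss reads of each locus and give no level for miR-181a-5p itself.

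Mir181b-1 was the lowest member. It had 16.5 CPM in library 1 (95% interval 11.4 to 23.2) and 6.98 CPM in library 2 (3.72 to 11.9), from 33 and 13 reads, a mean of 11.7 ± 6.74 CPM. Its range lay below that of Mir181a-2. Mir181b-2, the other source of miR-181b-5p, had 78.0 times its reads in library 1 (55.4 to 114 as the exact 95% interval) and 107 times in library 2 (62.4 to 201). The part of the shared 5p arm in this difference was not tested.

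**Figure D2:**
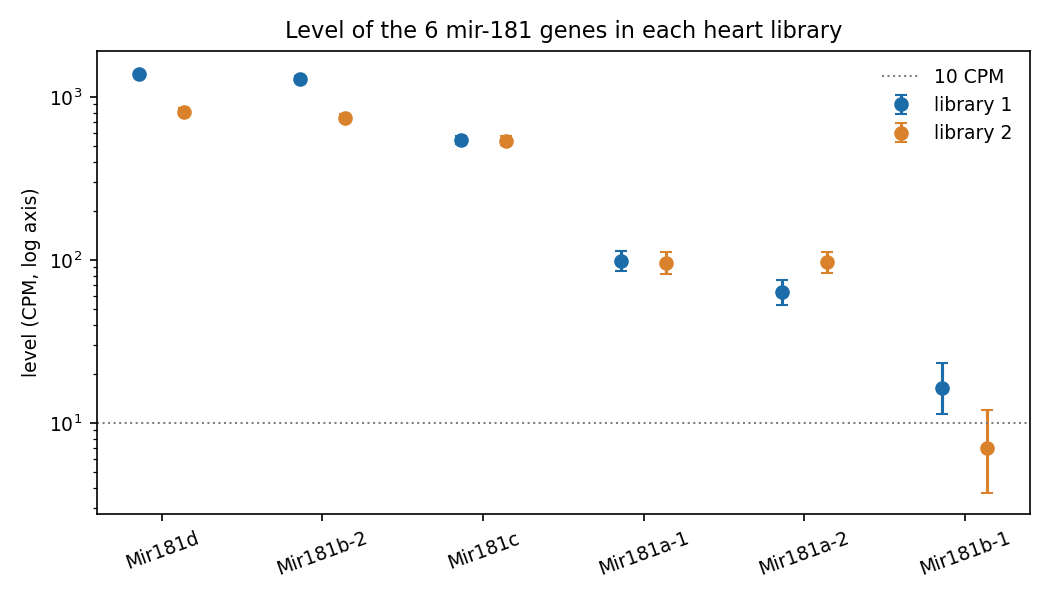
Level of each gene in CPM on a log axis, with library 1 in blue left of library 2 in orange, exact 95% counting intervals as bars and 10 CPM as a dotted line. Mir181d and Mir181b-2 are higher in library 1 than in library 2, the points of Mir181c and Mir181a-1 are nearly level, and only Mir181b-1 in library 2 lies under 10 CPM.

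On the antisense strand, the 6 genes had 0 reads in both libraries. By the limit of 3 counts that a 0 allows, antisense levels lay under 1.5 CPM in library 1 and under 1.61 CPM in library 2, for reads that map to a single place. The sense-strand counts and the counts of both strands together were equal for each member.

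Among genes with an arm that another locus makes too, Mir181b-2 was one of the most counted. Of 1018 miRNA genes with a mature entry of the same symbol in RefSeq, 94 have an arm identical to that of another locus. Among these 94, Mir181b-2 ranked 4 by mean level, Mir181a-1 ranked 19, Mir181a-2 ranked 20 and Mir181b-1 ranked 30. The median level of the 94 was 0.634 CPM, and 18 of them (19.1%) reached a mean of 100 CPM. The 924 genes with no such arm had a median of 0.268 CPM, and 108 of them (11.7%) reached it. These sets were not matched in any other trait, and how many reads the loci with a shared arm lost was not tested.

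By cluster the counted reads were divided nearly alike in the 2 libraries, and by sequence type less alike. The c/d cluster held 56.7% of the family's reads in library 1 (55.5 to 57.9 as the exact 95% interval) and 58.8% in library 2 (57.3 to 60.3), a mean of 57.7% ± 1.46. The a-2/b-2 cluster held 39.9% (38.7 to 41.1) and 36.7% (35.3 to 38.2), a mean of 38.3% ± 2.22. The a-1/b-1 cluster held 3.41% (2.99 to 3.87) and 4.49% (3.89 to 5.15), a mean of 3.95% ± 0.761. The intervals, which cover counting error only, overlapped for the c/d cluster and not for the others. By 5p sequence, a grouping chosen after the values were seen, the b-like genes Mir181b-1, Mir181b-2 and Mir181d held 79.1% of the family's reads in library 1 (78.1 to 80.0 as the exact 95% interval) and 68.2% in library 2 (66.8 to 69.6). The summed level of the a-like genes was 709 CPM in library 1 against 731 CPM in library 2, and that of the b-like genes 2678 CPM against 1566 CPM. The ratio of b-like to a-like reads, which no scaling changes, was 3.78 in library 1 (3.56 to 4.01) and 2.14 in library 2 (2.01 to 2.29). All these shares and ratios leave out reads of miR-181a-5p and miR-181b-5p that could not be placed at 1 copy. The genes of the c/d cluster are also those whose 5p arm is made at 1 locus. A higher level of that cluster and a fuller count of its reads cannot be told apart here.

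**Figure D3:**
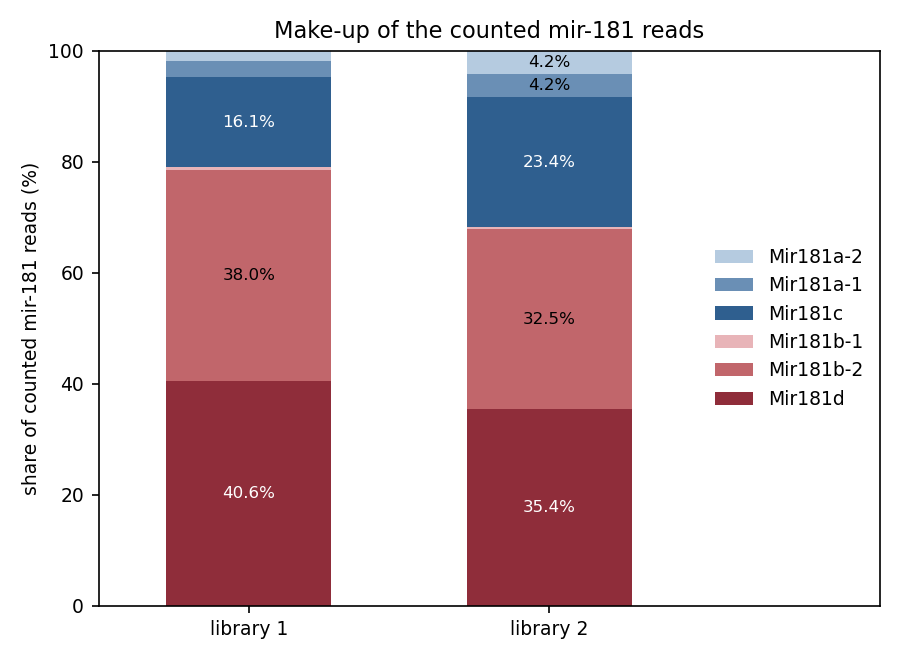
Share of each gene in the counted mir-181 reads (% of the family's reads, y axis) in library 1 and library 2, b-like genes in red and a-like genes in blue. Reads that could not be placed at 1 copy are left out. The b-like genes sum to 79.1% in library 1 and 68.2% in library 2, and Mir181c takes 16.1% and 23.4%.

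Ratios between members within a library do not depend on scaling. Over the 15 pairs of members the median shift of the ratio between libraries was 1.67-fold, against 1.55-fold over all pairs of the 263 miRNA genes that averaged at least 10 CPM. The 2 pairs with the smallest shift, picked out by their values, lie on different chromosomes and have like 5p sequences. The ratio of Mir181d to Mir181b-2, given above, shifted by 1.02-fold between libraries. The ratio of Mir181c to Mir181a-1 was 5.52 in library 1 (4.74 to 6.46 as the exact 95% interval) and 5.598 in library 2 (4.77 to 6.60), a shift of 1.01-fold.

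Neighbours in a cluster are thought to share a primary transcript, and their ratios shifted by 1.67-fold for Mir181d over Mir181c, 2.64-fold for Mir181b-2 over Mir181a-2 and 2.29-fold for Mir181a-1 over Mir181b-1. Mir181d exceeded Mir181c by 2.51 times in library 1 (2.34 to 2.70) and by 1.51 times in library 2 (1.39 to 1.64). Mir181b-2 exceeded Mir181a-2 by 20.3 times in library 1 (17.0 to 24.4) and by 7.69 times in library 2 (6.58 to 9.02). Mir181a-1 exceeded Mir181b-1 by 6.0 times in library 1 (4.14 to 8.96) and by 13.8 times in library 2 (7.85 to 26.4), where the intervals overlap. Like sequence did not go with a constant ratio in each case, since Mir181a-1 over Mir181a-2 was 1.56 in library 1 (1.24 to 1.96) and 0.989 in library 2 (0.800 to 1.22). Over the 15 pairs of members, the intervals of the 2 libraries overlapped for 6. Of these 6 pairs 4 include Mir181b-1, whose 33 and 13 reads make the intervals wide, at shifts of up to 2.33-fold. Among the 10 pairs without Mir181b-1 the intervals overlapped for 2, the pairs of Mir181d with Mir181b-2 and of Mir181c with Mir181a-1. The share of overlapping intervals over pairs of all genes was not counted, and fewer reads make overlap more frequent. The counts of overlaps therefore mark nothing particular to the family. These intervals cover counting error only, so they do not say how such ratios vary between hearts. Ratios with a Mir181a or Mir181b locus also leave out reads that could not be placed at 1 copy.

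**Figure D4:**
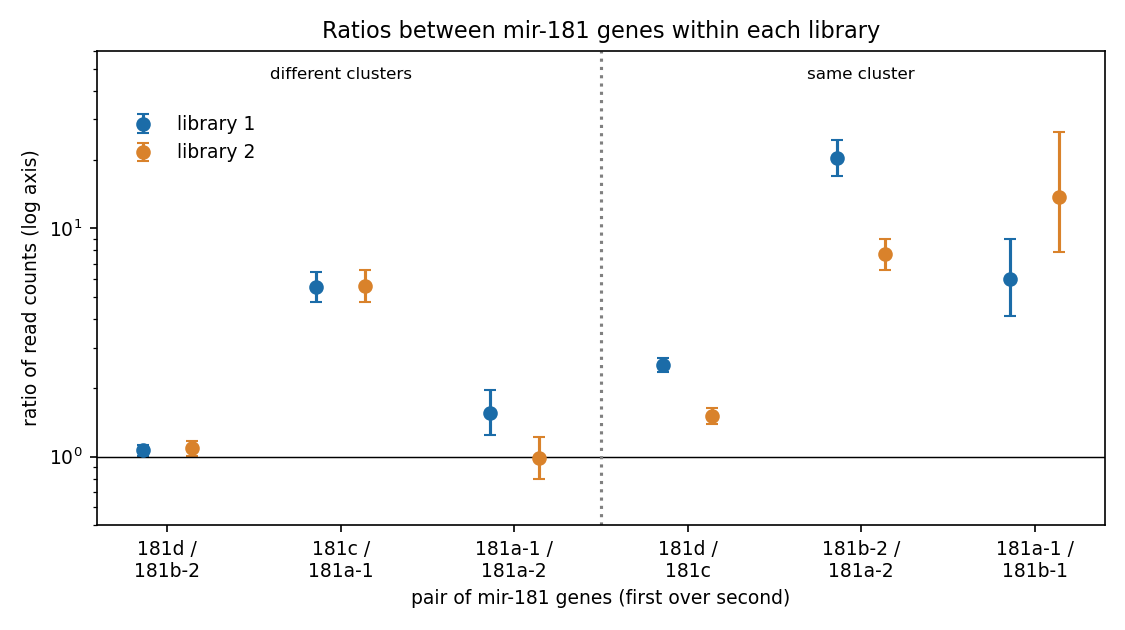
Ratio of read counts between 2 mir-181 genes (log axis) in library 1 (blue) and library 2 (orange), with exact 95% counting intervals, for 3 pairs of like sequence in different clusters and the 3 pairs within a cluster. The pairs of like sequence include the 2 with the smallest shift, picked out by their values. Left out are Mir181c to Mir181a-2 (shift 1.55-fold), Mir181d to Mir181b-1 (1.40-fold) and Mir181b-2 to Mir181b-1 (1.37-fold). Pairs of unlike sequence in different clusters are also left out. The ratios of Mir181d to Mir181b-2 and of Mir181c to Mir181a-1 are nearly equal in both libraries, while those of Mir181d to Mir181c and of Mir181b-2 to Mir181a-2 are higher in library 1.

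Differences between the libraries were set against those of all miRNA genes. The exact two-sided conditional binomial test was run on 344 genes with 10 or more reads, with Benjamini-Hochberg adjustment over all of them. It compares 2 libraries on counting error and says nothing of conditions. At an adjusted p under 0.05 and a ratio of 2-fold or more, 1 of 6 members was called, against 17.2% of tested genes. By adjusted p alone it was 4 of 6, against 54.1%. The median log2 ratio of library 1 over library 2 was 0.40 for the 6 members and 0.19 for all tested genes, and the median absolute log2 ratio was 0.69 and 0.46. Over all tested genes 40 were called higher in library 1 and 19 higher in library 2, a split of 27 and 28 with TMM scaling (a trimmed mean of log ratios between the libraries).

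The member called was Mir181b-1, with a log2 ratio of 1.21 (95% interval 0.28 to 2.29, adjusted p = 0.0157). It rests on 33 and 13 reads, and with TMM scaling its adjusted p of 0.051 missed the threshold. Mir181b-2 had a log2 ratio of 0.79 (0.69 to 0.88, adjusted p = 1.20e-61) and Mir181d one of 0.76 (0.67 to 0.85, adjusted p = 5.34e-62), both higher in library 1 and under 2-fold. With TMM scaling, which lowers each log2 ratio by 0.19, these remained above 0 at 0.60 and 0.57. Mir181a-2 was higher in library 2, with a log2 ratio of -0.61 (-0.95 to -0.28, adjusted p = 0.000691).

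For Mir181c (log2 ratio 0.02, -0.10 to 0.15, adjusted p = 0.819) and Mir181a-1 (0.04, -0.26 to 0.34, adjusted p = 0.871) no difference passed the test with scaling to assigned totals. Their signs turned with TMM scaling, to -0.17 for Mir181c (adjusted p = 0.0189), which then passed the adjusted p as lower in library 1, and to -0.15 for Mir181a-1 (adjusted p = 0.464), which did not. With assigned totals, 2.33% of tested genes had a smaller absolute log2 ratio than Mir181c.

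**Figure D5:**
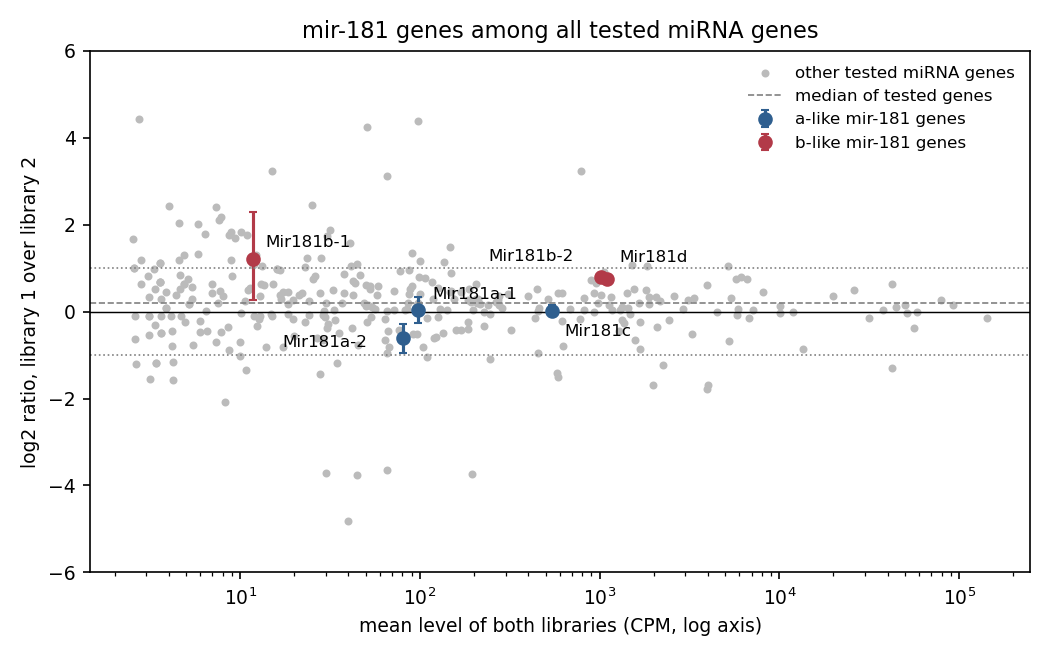
Log2 ratio of library 1 over library 2 (y axis) against mean level in CPM (x axis, log) for the 344 tested miRNA genes (grey), with a-like mir-181 genes in blue and b-like in red, exact 95% counting intervals as bars, the median of 0.19 dashed and 2-fold dotted. Mir181b-2 and Mir181d lie together at 0.79 and 0.76, Mir181c and Mir181a-1 near 0, and Mir181a-2 below it at -0.61.

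The nearest miRNA genes to the clusters were mostly far away or empty. The a-1/b-1 and a-2/b-2 clusters have no other annotated miRNA gene within 100 kb. Gm25110, 21.8 kb from the c/d cluster, had 0 reads in both libraries. Mir23a, on the plus strand 29.6 kb from the c/d cluster and thus on the opposite strand to it, had 51422 CPM in library 1 and 32989.6 CPM in library 2, a log2 ratio of 0.64. That level is far above those of Mir181c and Mir181d.

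By level in both libraries, measured as Euclidean distance of log2(CPM + 1) over the 2 libraries, Mir15a and Mir497 came nearest to both leading members. Mir15a had 1380 CPM in library 1 and 729 CPM in library 2, at a distance of 0.106 from Mir181b-2 and 0.156 from Mir181d. Mir497 had 1176 and 740 CPM. Nearest to Mir181c were Mir541 (569 and 468 CPM, distance 0.210) and Mir132 (568 and 661 CPM, 0.303). Nearest to Mir181a-1 were Mir18 (distance 0.0869) and Mir669c (0.101), nearest to Mir181a-2 were Mir345 (0.153) and Mir298 (0.280), and nearest to Mir181b-1 were Mir106a (0.0802) and Mir218-2 (0.0939). With 2 libraries this is likeness of level and of a single ratio.

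Other miRNAs of the processes in which the family is known were described by fixed lists. Of 8 lymphocyte miRNAs, levels ran from Mir142 at 307 ± 61.1 CPM to Mir155 at 3341 ± 492 CPM, with a median of 1742 CPM against 319.9 CPM for the 6 mir-181 genes and 55.2 CPM for all tested genes, and 0 of 8 were called at 2-fold and 8 by adjusted p alone, against 17.2% and 54.1% of all tested genes. Of 9 miRNAs of endothelial inflammation, levels ran from Mir222 at 148 ± 99.5 CPM to Mir126a at 56371 ± 10533 CPM, with a median of 1881 CPM, and 2 were called at 2-fold, 1 higher in each library, and 9 by adjusted p alone. Of 6 miRNAs reported to act on mitochondria in muscle or heart, levels ran from Mir1a-1 at 2.32 ± 0.250 CPM to Mir378a at 143048 ± 10179.9 CPM, with a median of 206 CPM, and of 5 tested 1 was called at 2-fold, higher in library 2, and 4 by adjusted p alone. Mir181c, the member known from heart mitochondria, lay between these ends, which are too far apart for this to liken it to the list. The lists share members with each other, and nothing particular to the family follows from these counts. Reads that mapped to several places are left out of these levels too, that of Mir1a-1 included.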

How the data were processed

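Per the labels and the text deposited beside the tables, microRNA-seq reads of 2 heart libraries were processed on mm10 with annotation M21. The sources used here do not give the aligner or counter. The authors deposited raw counts per miRNA gene without a header, in 3 columns (both strands, sense, antisense, the strand being read from the values), below 4 rows for reads assigned to no gene. Those rows (63.5% of reads in library 1 and 61.9% in library 2) entered neither totals nor tests. All 2202 identifiers matched the annotation.

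Sense counts were scaled to the sense total of each library (CPM). Shares and ratios have exact binomial 95% intervals. Genes with 10 or more reads summed entered an exact two-sided conditional binomial test between libraries, adjusted by Benjamini-Hochberg, with 0.5 added to counts for log2 ratios (Python 3.11.15, scipy 1.17.1). The code was run on simulated counts that hold sampling noise only, which gives no error rate for these libraries. TMM factors came from edgeR 4.0.16 and size factors from DESeq2 1.42.0. With 1 group no replicate-based test was possible. The libraries differed beyond sampling noise (chi-square 92268 on 343 degrees of freedom). Named besides the members were the 2 nearest genes in level of each member and the ends of fixed lists. Of miRNA neighbours, only the nearest on each side of a cluster was named, if within 100 kb. The members and lists were chosen with earlier results of these data known. Sequences came from RefSeq, GRCm38.p6.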

Additional observations from a re-analysis of the deposited data

Results flagged for a closer look

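Reads outside the measured genes stood above the limit that a count of 0 allows, a limit too low for passing it to carry a conclusion. Reads mapped to several places made up 41.5% of library 1 and 42.9% of library 2. miR-181a-5p and miR-181b-5p are each made at 2 annotated loci, so reads of both can fall there, and these reads were not traced to a gene. With 2 libraries in 1 group, no test for an outlying sample or for a difference between groups applied.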

How the results depend on the processing

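No paired analysis was possible because the libraries form 1 group. The mean family level was 3677 CPM with both strands counted together and 1055 with all reads as the denominator. With both strands the counts of the members were unchanged, and the total they were scaled to was smaller. That total was 1566474 reads in library 1 and 1411727 in library 2. The family's log2 ratio of library 1 over library 2 (0.56) was 0.50 over all reads and 0.37 with TMM or DESeq2 scaling. The ratio of Mir181a-1 turned to -0.0049 with both strands, -0.018 over all reads and -0.147 with TMM or DESeq2. That of Mir181c turned to -0.025, -0.038 and -0.167 under the same settings and to -0.0012 without Mir378a, the most abundant gene. In the exact binomial test the count of members called (1) was 0 with TMM or DESeq2 scaling (5 at an unadjusted p under 0.05) and 0 of 5 tested at 100 or more reads (3 unadjusted), and 4 at 1.5-fold or without a fold threshold. Genes under an unadjusted p of 0.05 were not counted over all genes, so the unadjusted 5 and 3 have no share beside them. Over all genes the count was 55 of 344 (16.0%) with TMM or DESeq2, 33 of 216 (15.3%) at 100 or more reads, 105 of 344 (30.5%) at 1.5-fold and 186 of 344 (54.1%) without a fold threshold, against 59 of 344 (17.2%). Leaving out each library moved no level, cluster share or within-cluster ratio by more than its SD, a limit that n = 2 sets by itself. Depth limits Mir181b-1 most, at 46 reads in all.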
